A study of Homo sapiens with 6 samples.

Results

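The MHC class I presentation genes described here are 9 human genes: HLA-B, HLA-C, HLA-E and HLA-F, which encode heavy chains, B2M, which encodes their light chain, TAP1, TAP2 and TAPBP, which serve peptide loading, and NLRC5, a transcriptional regulator. They were chosen by symbol, as the rows of the count table whose Ensembl identifier belongs to 1 of these names on the primary assembly. They are 9 of 60612 gene identifiers, and all 9 passed the filter on low counts that left 17224 genes for testing. The rule uses no measured value, but the 9 symbols were picked with earlier results of these data known.

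MHC class I molecules display peptides from proteins made inside the cell to CD8+ T cells and natural killer cells. The proteasome cuts proteins into peptides, the TAP1 and TAP2 transporter moves them into the endoplasmic reticulum, and tapasin, encoded by TAPBP, holds the empty heavy chain and beta-2-microglobulin at the transporter until a peptide binds. Heavy chains, light chain, transporter and the inducible proteasome subunits are raised together by interferons, and NLRC5 binds with the RFX, CREB and NF-Y factors at class I promoters.

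RNA was sequenced from U937, an established human cell line of myeloid origin that the labels describe as acute myeloid leukemia and as wild type in genotype. The B2 group received 1 µM of a compound known from the labels only as B2, for 36 h, and the DMSO group received the vehicle for 36 h. Cells of both groups were held in RPMI-1640 medium from which serum had been left out, and each group has 3 libraries, numbered 1 to 3. All libraries come from 1 cell line, and nothing in the labels says that the libraries are separate cultures or what a number marks, so every p-value here is set against library-to-library spread that may be technical only.

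Total counts per library ran from 61150740 to 78431054, and a count of 3 corresponded to 0.0386 to 0.0537 CPM, the unit of all levels below, which gives a count relative to the library total after scaling with TMM factors (0.862 to 1.073). Of 11 listed markers of myeloid cells, all 11 passed the filter, with summed levels of 4931 to 9731 CPM in the B2 libraries and 4570 to 10290 CPM in the DMSO libraries. MPO, a granule enzyme of early myeloid cells, was low among them at 0.281 to 1.67 CPM with B2 and 0.567 to 1.04 CPM with DMSO, while AZU1, another granule gene, lay at 389 to 504 CPM with B2 and 374 to 671 CPM with DMSO. The replicate numbers differed: 461 of 17224 genes, 2.68% of those tested, passed at an adjusted p below 0.05 in edgeR's quasi-likelihood test with treatment and number as terms. That test also calls genes that differ only between numbers 1 and 2. Both libraries numbered 3 lay above the other 4 in 2118 genes (12.3%). The results for the 9 genes are therefore given by treatment and by number.

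Of the 9 genes, 7 lie on chromosome 6, B2M lies on chromosome 15 and NLRC5 on chromosome 16 (GRCh38, GENCODE 29). HLA-F (ENSG00000204642, 29722775 to 29738528) and HLA-E (ENSG00000204592, 30489467 to 30494205) are on the plus strand. HLA-C (ENSG00000204525, 31268749 to 31272130) and HLA-B (ENSG00000234745, 31353875 to 31357179 in RefSeq, GRCh38.p14) are on the minus strand, as are TAP2 (ENSG00000204267, 32821833 to 32838780), TAP1 (ENSG00000168394, 32845209 to 32853978) and TAPBP (ENSG00000231925, 33299694 to 33314387). B2M (ENSG00000166710, 44711487 to 44718877) and NLRC5 (ENSG00000140853, 56989485 to 57083531) are on the plus strand.

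Reads can be shared between some of these genes and others. Exons of TAP2 overlap 2064 bases of another gene on the same strand, and 31.3% of the 50-base windows of its annotated transcripts also occur in transcripts of another gene. That share was 5.38% for HLA-C, 4.34% for HLA-E, 4.17% for TAPBP, 2.72% for HLA-B, 0.977% for HLA-F and 0.88% for TAP1, while B2M and NLRC5 had none. HLA-B and HLA-C had 2.48% of HLA-B's windows in common. The strand setting of the counting is not given in the sources used here, so the 1493 bases of HLA-F that overlap genes on the other strand, 535 of them in HLA-F-AS1, may also exchange reads. The same holds for 542 bases of HLA-B and 456 bases of TAP1, and annotated exons of HLA-B and HLA-C overlap by 35 bases on the same strand. The values of TAP2, HLA-F, HLA-B, HLA-C and TAP1 are uncertain for these reasons, with the longest overlaps in TAP2 and HLA-F. Those of HLA-E and TAPBP are uncertain through their shared windows.

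Compared per kilobase of annotated exon, HLA-C, HLA-B, B2M and HLA-E stood above the other 5 in each library. HLA-C held the first place in all 6 libraries, at 340.3 to 1258 CPM per kilobase with B2 and 305 to 1347 CPM per kilobase with DMSO. HLA-B, which was second in 5 of the 6 libraries with B2M second in DMSO replicate 2, lay at 262 to 1099 with B2 and 221 to 1286 with DMSO, B2M at 212 to 692 with B2 and 176 to 715 with DMSO, and HLA-E at 115 to 382 with B2 and 104 to 423 with DMSO, in the same unit. The lower places were the same in each library: TAPBP (29.2 to 64.3 CPM per kilobase over all 6), TAP1 (16.2 to 44.4), TAP2 (12.4 to 14.4), NLRC5 (2.58 to 4.36) and HLA-F (0 to 0.131).

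The spread over libraries of HLA-C, HLA-B and B2M overlapped, so that order among neighbours rests on the order within each library. It also depends on the length used. B2M stood first in 5 of 6 libraries with the length of the longest principal transcript, an alternative added after the data were seen. It then lay at 628 to 2550 CPM per kilobase over all 6. The reason is that its annotated exons add up to 6079 bases and its principal transcript to 1705. With that length TAP2 stood above TAP1 in both libraries numbered 2. The levels were 33.3 against 31.6 CPM per kilobase in B2 replicate 2 and 33.8 against 26.3 in DMSO replicate 2.

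Promoter sequences are shown for the 7 genes with a RefSeq window. HLA-B, HLA-C, B2M, TAP1 and TAPBP had both libraries numbered 3 above the other 4, and TAP2 and HLA-F did not. Each is the 250 bases before the RefSeq start site (GRCh38.p14), 5′ to 3′ on the gene's own strand, and is the reference sequence, from which the alleles of U937 may differ. Capitals mark matches on either strand to GAAANNGAA (core of the interferon-stimulated response element), TTCNNNGAA (palindrome of the gamma-activated sequence), CCAAT (bound by NF-Y), TGACG (core of the cyclic AMP response element) and GGGNNTTCC (core of the kappa B site).
HLA-B (chr6:31357180-31357429, minus strand): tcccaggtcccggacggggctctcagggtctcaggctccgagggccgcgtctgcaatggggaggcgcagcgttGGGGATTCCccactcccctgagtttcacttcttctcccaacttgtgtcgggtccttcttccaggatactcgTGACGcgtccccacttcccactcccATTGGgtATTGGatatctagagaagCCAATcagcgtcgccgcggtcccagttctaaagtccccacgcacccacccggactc
HLA-C (chr6:31272093-31272342, minus strand): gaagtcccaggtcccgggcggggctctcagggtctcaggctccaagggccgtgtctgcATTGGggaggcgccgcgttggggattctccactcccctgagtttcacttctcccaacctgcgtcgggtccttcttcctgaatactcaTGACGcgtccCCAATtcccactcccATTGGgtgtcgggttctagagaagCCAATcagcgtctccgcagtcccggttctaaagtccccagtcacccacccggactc
HLA-F (chr6:29723184-29723433, plus strand): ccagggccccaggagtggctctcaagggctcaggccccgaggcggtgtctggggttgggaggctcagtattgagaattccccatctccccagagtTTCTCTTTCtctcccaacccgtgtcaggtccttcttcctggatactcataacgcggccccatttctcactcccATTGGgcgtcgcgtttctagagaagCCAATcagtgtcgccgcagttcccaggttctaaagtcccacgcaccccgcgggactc
B2M (chr15:44711267-44711516, plus strand): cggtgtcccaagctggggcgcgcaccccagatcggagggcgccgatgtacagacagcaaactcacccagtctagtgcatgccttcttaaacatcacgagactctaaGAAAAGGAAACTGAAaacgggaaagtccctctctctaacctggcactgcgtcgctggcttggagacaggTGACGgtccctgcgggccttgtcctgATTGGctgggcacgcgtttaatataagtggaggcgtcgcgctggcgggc
TAP1 (chr6:32853705-32853954, minus strand): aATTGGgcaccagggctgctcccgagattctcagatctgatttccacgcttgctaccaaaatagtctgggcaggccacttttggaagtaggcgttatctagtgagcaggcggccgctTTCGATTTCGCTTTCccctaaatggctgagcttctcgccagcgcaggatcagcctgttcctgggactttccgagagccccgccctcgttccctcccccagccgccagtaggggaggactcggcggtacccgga
TAPBP (chr6:33314079-33314328, minus strand): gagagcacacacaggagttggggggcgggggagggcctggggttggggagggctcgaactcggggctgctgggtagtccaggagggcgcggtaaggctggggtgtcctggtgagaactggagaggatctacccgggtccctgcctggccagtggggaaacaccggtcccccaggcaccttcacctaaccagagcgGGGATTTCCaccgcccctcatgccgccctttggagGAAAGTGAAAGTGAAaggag
TAP2 (chr6:32838740-32838989, minus strand): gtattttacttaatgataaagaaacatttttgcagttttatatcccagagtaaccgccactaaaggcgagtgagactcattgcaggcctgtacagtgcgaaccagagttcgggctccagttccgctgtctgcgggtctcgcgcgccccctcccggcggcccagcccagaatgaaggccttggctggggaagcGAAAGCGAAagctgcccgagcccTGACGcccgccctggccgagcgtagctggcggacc

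The windows of HLA-B and HLA-C were 89.0% identical, and HLA-F's window was 80.4% identical to that of HLA-B and 78.7% to that of HLA-C. B2M held 2 overlapping matches to GAAANNGAA at positions -144 to -130 from the start site, TAP1 held 2 at -133 to -119 and TAPBP 2 at -20 to -6. TAP2 held 1 such match at -58 to -50 and HLA-F 1 at -155 to -147. HLA-B and HLA-C held none of exactly these letters, which says nothing of the factors. In HLA-B, HLA-C and HLA-F a CCAAT match stood within the 57 bases before the start site, and TGACG stood at -106 to -102 in HLA-B, -105 to -101 in HLA-C, -75 to -71 in B2M and -35 to -31 in TAP2.

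There were 8 windows in all, since TAP1 has a second start site whose window is not printed. GAAANNGAA occurred in 5 of these 8 windows and in 6.88% of all 35116 windows of the same length. CCAAT occurred in 5 of 8 and in 32.01% of all windows, TGACG in 4 of 8 and in 21.22%, GGGNNTTCC in 2 of 8 and in 5.78%, and TTCNNNGAA in 1 of 8 and in 6.57%. GGGNNTTCC stood at -177 to -169 in HLA-B and at -55 to -47 in TAPBP. These matches describe the letters and no binding was measured.

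Between B2 and DMSO none of the 9 genes passed the test. The count called over all genes was 0 of 17224 (0.0%) at an edgeR adjusted p below 0.05, and 0 of the 9 had an unadjusted p below 0.05, as had 85 genes (0.493%) of all tested. B2 and DMSO libraries overlapped in each of the 9 genes, whereas 614 genes (3.56%) of all tested had groups that did not overlap. All 9 estimates were negative, with a median log2 fold change of -0.09 against -0.08 over all genes, of which 10689 were negative and 6535 positive. With library totals as the only scaling, TAP1, TAP2 and NLRC5 lay at 0.00, 0.01 and 0.01.

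**Figure D1:**
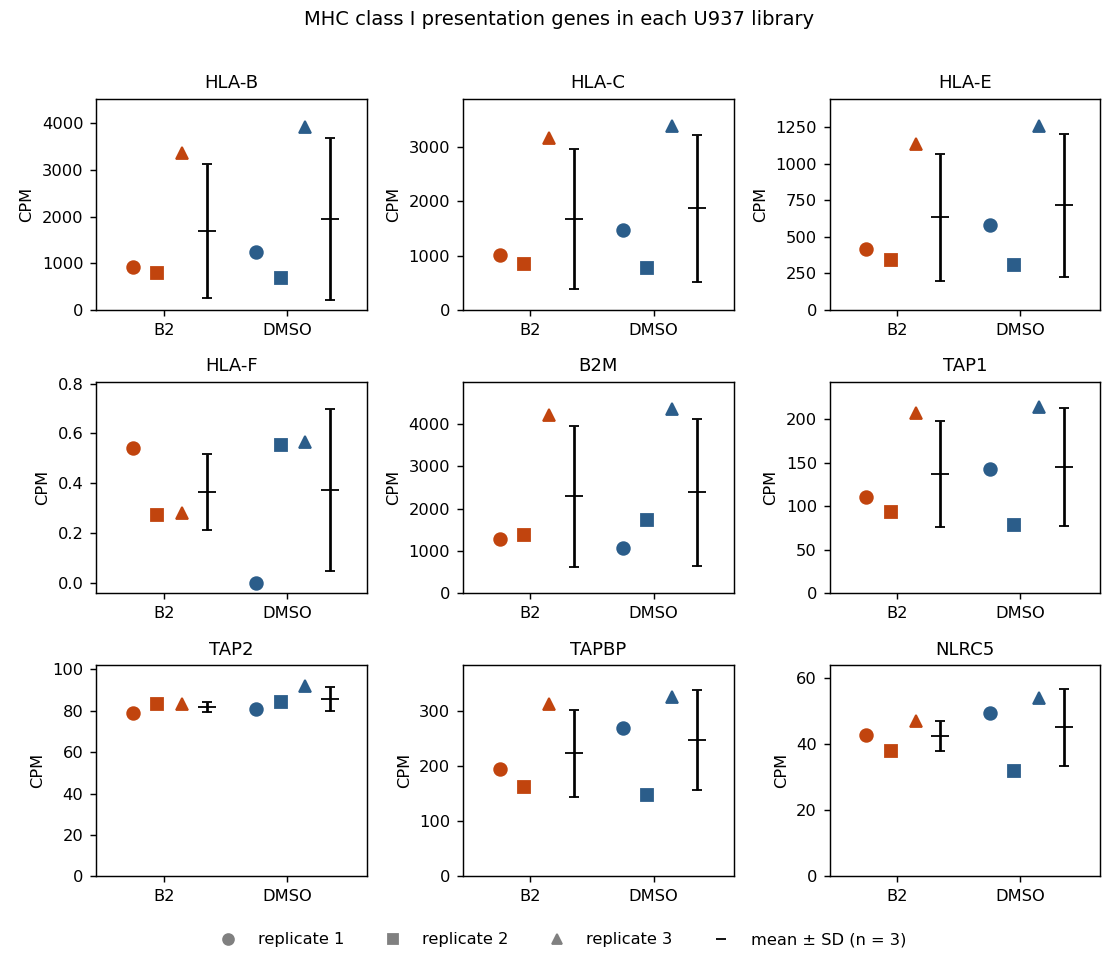
Level of each class I presentation gene in every library, in CPM on a linear axis that differs between panels, with B2 libraries (orange) left of DMSO libraries (blue), symbols for the replicate number, and the mean ± SD of 3 libraries in black. In HLA-B, HLA-C, HLA-E, B2M, TAP1 and TAPBP both triangles (replicate 3) lie above the other 4 libraries, and in every panel the B2 and DMSO libraries overlap.

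HLA-B, a classical heavy chain that presents peptides to CD8+ T cells, had 929, 798 and 3352 CPM in B2 replicates 1, 2 and 3, against 1243, 675 and 3922 CPM in DMSO replicates 1, 2 and 3. In both groups the library numbered 3 was the highest, and each B2 library lay between the lowest and the highest DMSO library. The means were 1693 ± 1438 CPM with B2 and 1946 ± 1734 CPM with DMSO (SD, n = 3 each), giving a log2 fold change of -0.20 (SE 0.742, 95% interval -1.90 to 1.50, edgeR adjusted p = 1.0).

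HLA-C, the second classical heavy chain measured here and also a ligand of receptors on natural killer cells, had 1017, 853 and 3154 CPM in B2 replicates 1, 2 and 3, against 1478, 764 and 3376 CPM in DMSO replicates 1, 2 and 3. Its pattern over the 6 libraries had the same order as that of HLA-B, with DMSO replicate 2 lowest and DMSO replicate 3 highest. The log2 fold change of B2 over DMSO was -0.16 (SE 0.647, 95% interval -1.64 to 1.32, edgeR adjusted p = 1.0).

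HLA-E, a heavy chain with little variation between people that presents leader peptides of other class I chains to natural killer cells, had 419.8, 343 and 1135 CPM in B2 replicates 1, 2 and 3, against 584, 308 and 1259 CPM in DMSO replicates 1, 2 and 3. Ordered by level, the libraries again stood as in HLA-B, and the groups overlapped. The log2 fold change was -0.18 (SE 0.602, 95% interval -1.56 to 1.20, edgeR adjusted p = 1.0).

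HLA-F, a heavy chain that can reach the surface without a peptide, was read at few counts. It had 40, 20 and 17 counts (0.542, 0.274 and 0.281 CPM) in B2 replicates 1, 2 and 3, against 0, 43 and 44 counts (0, 0.554 and 0.567 CPM) in DMSO replicates 1, 2 and 3. The count of 0 in DMSO replicate 1 allows a level of up to 0.0537 CPM there, counting error only. The log2 fold change was -0.04 (SE 1.09, 95% interval -2.55 to 2.46, edgeR adjusted p = 1.0), and its sign turned in 11 of 19 alternatives, so no direction can be given for it. HLA-F-AS1, which lies on the opposite strand, had 7.34, 5.12 and 5.18 CPM in B2 replicates 1, 2 and 3, against 6.11, 6.44 and 4.92 CPM in DMSO replicates 1, 2 and 3.

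B2M, the light chain that every class I heavy chain needs for a stable fold, had 1290, 1365 and 4206 CPM in B2 replicates 1, 2 and 3, against 1070, 1730 and 4348 CPM in DMSO replicates 1, 2 and 3. Both libraries numbered 3 were far above the other 4, and among the DMSO libraries replicate 1 was the lowest, where HLA-B, HLA-C and HLA-E had their lowest level in replicate 2. The means were 2287 ± 1662 CPM with B2 and 2383 ± 1733 CPM with DMSO (SD, n = 3 each) and the log2 fold change was -0.06 (SE 0.625, 95% interval -1.49 to 1.37, edgeR adjusted p = 1.0).

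TAP1, an ATP-driven subunit of the peptide transporter, had 110.0, 93.6 and 207 CPM in B2 replicates 1, 2 and 3, against 143, 77.8 and 213 CPM in DMSO replicates 1, 2 and 3. TAP2, its partner subunit, had 78.95, 83.2 and 83.3 CPM in B2 replicates 1, 2 and 3, against 81.0, 84.3 and 92.0 CPM in DMSO replicates 1, 2 and 3. TAP2 was thus nearly level over all 6 libraries, where TAP1 was highest in both libraries numbered 3. The log2 fold changes of B2 over DMSO were -0.08 for TAP1 (SE 0.439, 95% interval -1.09 to 0.92) and -0.07 for TAP2 (SE 0.226, interval -0.58 to 0.45), each with an edgeR adjusted p of 1.0.

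TAPBP, which encodes tapasin, had 194, 162 and 313 CPM in B2 replicates 1, 2 and 3, against 270.1, 148 and 325 CPM in DMSO replicates 1, 2 and 3. Its highest libraries were those numbered 3, with DMSO replicate 1 next. NLRC5, the class I transactivator, had 42.9, 37.9 and 46.97 CPM in B2 replicates 1, 2 and 3, against 49.5, 31.98 and 53.98 CPM in DMSO replicates 1, 2 and 3. Its B2 values lay inside the range of its DMSO values. The log2 fold changes were -0.15 for TAPBP (SE 0.378, 95% interval -1.02 to 0.72) and -0.09 for NLRC5 (SE 0.285, interval -0.74 to 0.57), each with an edgeR adjusted p of 1.0.

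These intervals reach beyond both a doubling and a halving for HLA-B, HLA-C, HLA-E, HLA-F and B2M, and beyond a halving for TAP1 and TAPBP, so without the replicate number in the fit a change of that size could not have been told from none. With the replicate number as a block the intervals of all genes but HLA-F lay within a halving and a doubling, the adjusted p values stayed at 1.0, and the estimates of these 8 genes kept their sign. HLA-F turned to 0.35 (SE 1.23). The blocked intervals were -0.66 to 0.39 for HLA-B, -0.69 to 0.37 for HLA-C, -0.69 to 0.37 for HLA-E, -0.56 to 0.48 for B2M, -0.59 to 0.49 for TAP1, -0.59 to 0.45 for TAP2, -0.66 to 0.40 for TAPBP and -0.62 to 0.51 for NLRC5.

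**Figure D2:**
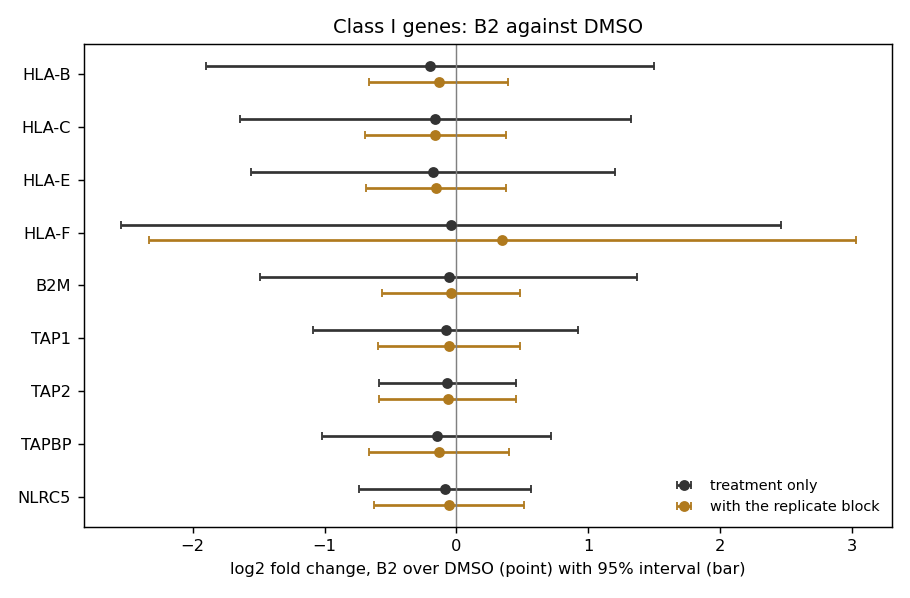
Log2 fold change of B2 over DMSO (x axis) for each class I presentation gene, with treatment as the only term (dark, upper) and with the replicate number as a block (brown, lower), where points are estimates and bars 95% intervals. All 18 intervals cross 0, and for HLA-B the interval runs from -1.90 to 1.50 without the block and from -0.66 to 0.39 with it.

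The 3 same-numbered pairs of libraries did not share a direction in most of the genes. The B2 over DMSO ratio of CPM for HLA-B was 0.748 in number 1, 1.18 in number 2 and 0.855 in number 3. For HLA-C it was 0.688, 1.12 and 0.934, for HLA-E 0.72, 1.11 and 0.902, for TAP1 0.769, 1.20 and 0.969, for TAPBP 0.72, 1.10 and 0.963, and for NLRC5 0.866, 1.18 and 0.87, in numbers 1, 2 and 3. These genes were thus lower with B2 in pairs 1 and 3 and higher in pair 2. B2M ran the other way in the first pairs, at 1.21 in number 1, 0.789 in number 2 and 0.967 in number 3. TAP2 stayed close to 1 at 0.975, 0.987 and 0.906.

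Leaving out 1 library turned the sign in 8 of the 9 genes, all but TAP2. Without DMSO replicate 3 the log2 fold change of B2 over DMSO was 0.82 for HLA-B, 0.58 for HLA-C, 0.51 for HLA-E, 0.71 for B2M and 0.31 for TAP1. Without B2 replicate 3 it was -1.18 for HLA-B, -1.005 for HLA-C, -0.91 for HLA-E, -0.85 for B2M and -0.51 for TAP1. None of these passed the test, and each removal leaves a library numbered 3 without its partner.

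By replicate number, HLA-B, HLA-C, HLA-E and B2M rose in the libraries numbered 3, to between 2.96 and 4.06 times the level in numbers 1 and 2. The edgeR test across numbers compares all of them, so its adjusted p, here and below, is not a test of the number 3 difference alone. These 4 of the 9 genes passed the edgeR test across numbers, all with the higher level in number 3, where 2.68% of all genes tested passed and 2.2% passed with number 3 higher. That background is unsteady, since the count over all genes moved to 4124 without B2 replicate 1, to 1726 without B2 replicate 2 and to 1686 with DESeq2. In 6 of the 9, the same 4 with TAP1 and TAPBP, both libraries numbered 3 lay above the other 4, as they did in 12.3% of all genes (2118). The median log2 difference of number 3 from the mean of numbers 1 and 2 was 1.01 over the 9 genes and -0.05 over all genes. HLA-F, TAP2 and NLRC5 did not have both libraries on top.

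Among the heavy chains, HLA-B averaged 3637 CPM in number 3, against 1086 and 736 CPM in numbers 1 and 2. That is a log2 difference of 2.02 (SE 0.246, 4.06-fold, edgeR adjusted p = 0.00156). The step was present within each treatment. Among B2 libraries number 3 was 3.61 times number 1 and 4.20 times number 2, and among DMSO libraries it was 3.16 and 5.81 times. HLA-B passed in 18 of 18 alternatives.

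HLA-C averaged 3265 CPM in number 3, against 1248 and 809 CPM in numbers 1 and 2, a log2 difference of 1.70 (SE 0.247, 3.26-fold, edgeR adjusted p = 0.00523). Within B2 the ratios of number 3 to numbers 1 and 2 were 3.10 and 3.70, and within DMSO they were 2.28 and 4.42. HLA-E averaged 1197 CPM in number 3, against 502 and 326 CPM in numbers 1 and 2, a log2 difference of 1.57 (SE 0.246, 2.96-fold, edgeR adjusted p = 0.00879). Its ratios were 2.70 and 3.31 within B2 and 2.16 and 4.09 within DMSO. HLA-C lost its call without B2 replicate 3 (edgeR adjusted p = 0.0891) or DMSO replicate 3 (0.0638), where number 3 is left with 1 library. HLA-E lost it there too (0.167 and 0.183) and without DMSO replicate 2 (0.0538).

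B2M averaged 4277 CPM in number 3, against 1180 and 1547 CPM in numbers 1 and 2, a log2 difference of 1.66 (SE 0.243, 3.16-fold, edgeR adjusted p = 0.00604). Number 3 was 3.26 times number 1 and 3.08 times number 2 within B2, and 4.06 and 2.51 times within DMSO. The call was lost without B2 replicate 3 (edgeR adjusted p = 0.0954) and without DMSO replicate 3 (0.117), with the log2 difference at 1.67 and 1.66.

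The loading genes differed among themselves. TAP1 averaged 210.1 CPM in number 3, against 127 and 85.7 CPM in numbers 1 and 2, a log2 difference of 1.01 (SE 0.252, 2.02-fold), and did not pass in the main test (edgeR adjusted p = 0.0852), though it did in 7 of 18 alternatives. TAPBP averaged 319 CPM in number 3, against 232 and 155 CPM in numbers 1 and 2, with a log2 difference of 0.75 (SE 0.250, edgeR adjusted p = 0.146), and passed in 3 of 18. TAP2 averaged 87.7 CPM in number 3, against 79.98 and 83.8 CPM in numbers 1 and 2, with a log2 difference of 0.10 (SE 0.251, 95% interval -0.45 to 0.65, edgeR adjusted p = 0.943).

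NLRC5 averaged 50.5 CPM in number 3, against 46.2 and 34.9 CPM in numbers 1 and 2, with a log2 difference of 0.33 (SE 0.272, 95% interval -0.27 to 0.92, edgeR adjusted p = 0.494). TAP2 and NLRC5 passed in none of 18 alternatives, and the upper ends of their intervals lay below the lower ends for HLA-B, HLA-C, HLA-E and B2M, the lowest of which was 1.03. HLA-F had a log2 difference of 0.43 with an SE of 1.13 (edgeR adjusted p = 0.901). Its value rests on single libraries, at 4.20 without B2 replicate 1 (edgeR adjusted p = 0.0467) and -0.95 without DMSO replicate 3.

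**Figure D3:**
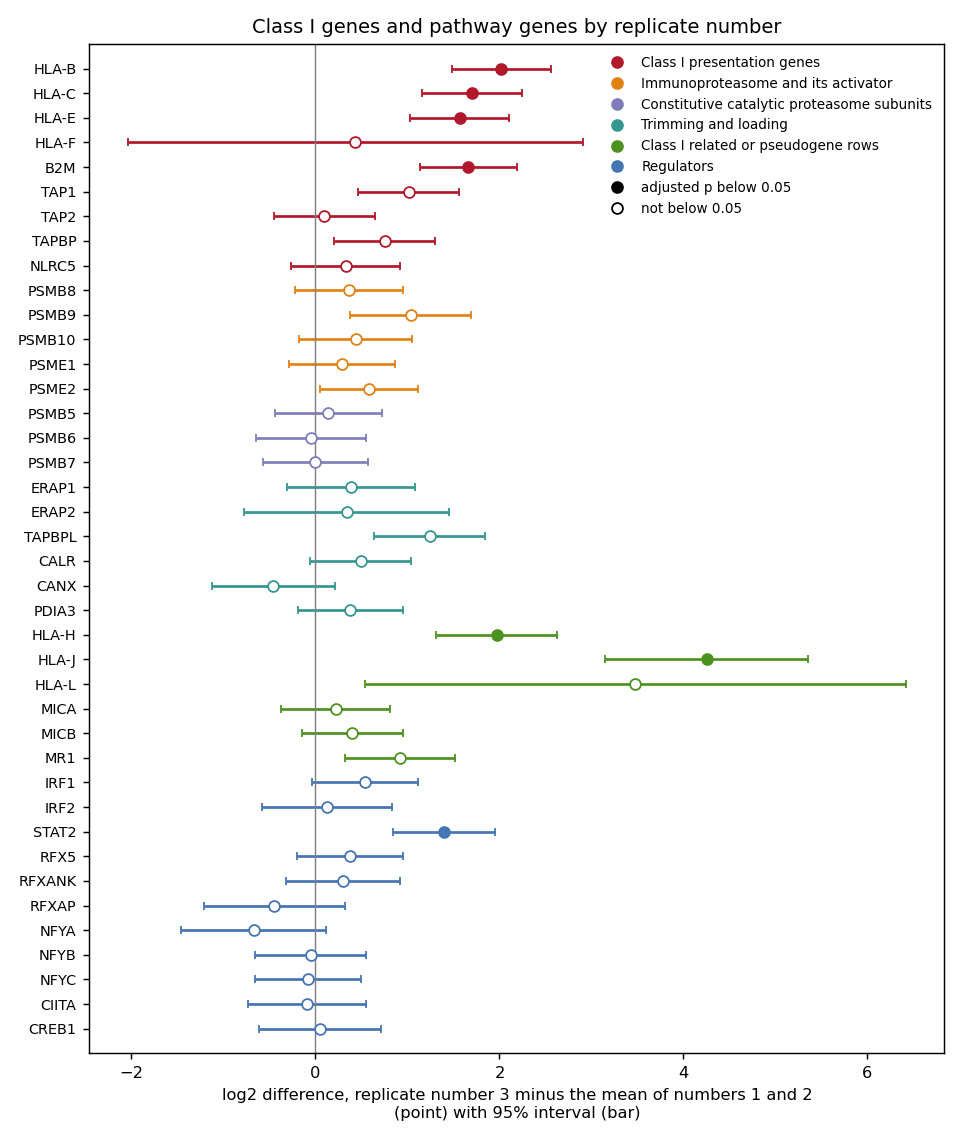
Log2 difference of replicate number 3 from the mean of numbers 1 and 2 (x axis) for the class I presentation genes (red) and for the pathway genes in 5 lists (other colours), with 95% intervals as bars. Filled points mark an adjusted p below 0.05 in edgeR's F test across the replicate numbers, which is not a test of the plotted difference alone. HLA-B, HLA-C, HLA-E and B2M are filled and lie between 1.57 and 2.02, while TAP2 lies at 0.10 and NLRC5 at 0.33.

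Ratios within a library show how unequal these steps were. They are ratios of CPM and are compared between libraries, not read as relative amounts of the RNAs. TAP1 over TAP2 was 2.48 and 2.32 in B2 and DMSO replicate 3, while it was 1.13 and 1.39 in the other B2 libraries and 0.922 and 1.77 in the other DMSO libraries. HLA-B over NLRC5 was 71.4 and 72.7 in B2 and DMSO replicate 3, against 21.1 and 21.7 in the other B2 libraries and 21.1 and 25.1 in the other DMSO libraries. HLA-B over HLA-C was 1.06 and 1.16 in the libraries numbered 3 and 0.841 to 0.935 in the other 4.

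The 9 genes together held 4083, 3736 and 12500 CPM in B2 replicates 1, 2 and 3, and 4918, 3819 and 13590 CPM in DMSO replicates 1, 2 and 3. As a share of the scaled counts the sum amounted to 0.408%, 0.374% and 1.25% in B2 replicates 1, 2 and 3, against 0.492%, 0.382% and 1.36% in DMSO replicates 1, 2 and 3. In bulk RNA, more cells of a type and more RNA per cell cannot be told apart.

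A trend with base composition moved with part of these values. Across genes, the Spearman correlation between GC content and a library's deviation from the mean of the 6 libraries came to 0.199, -0.271 and 0.039 in B2 replicates 1, 2 and 3, against 0.476, -0.552 and 0.086 in DMSO replicates 1, 2 and 3, a description over genes that share a library. It was near 0 in both libraries numbered 3. DMSO replicates 1 and 2 differed most. Their median log2 difference over genes (replicate 1 minus replicate 2) was -0.87 below 40% GC, -1.20 at 40 to 45% and -0.68 at 45 to 50%. It was 0.13 at 50 to 55%, 0.56 at 55 to 60% and 0.76 from 60% upward.

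The class I genes spread over that range of GC content, and all but HLA-F, which was not compared, lay above the median of their GC range. The longest transcript has a GC content of 40.6% in B2M and 49.1% in TAP2, and of 54.8% in HLA-E, 57.5% in TAP1, 57.7% in TAPBP, 58.1% in NLRC5, 58.95% in HLA-B and 62.7% in HLA-C. The log2 difference between DMSO replicates 1 and 2 was -0.69 for B2M and -0.06 for TAP2, and 0.92 for HLA-E, 0.88 for TAP1, 0.87 for TAPBP, 0.63 for NLRC5, 0.88 for HLA-B and 0.95 for HLA-C. The CPM ratio of the summed heavy chains HLA-B, HLA-C and HLA-E to B2M moved with it, at 3.09 in DMSO replicate 1 and 1.01 in DMSO replicate 2.

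With the GC and length trend of each library removed, an alternative added after the data were seen, that ratio came to 1.62, 1.696 and 1.75 in B2 replicates 1, 2 and 3, against 1.94, 1.69 and 1.90 in DMSO replicates 1, 2 and 3. The step in number 3 was about as large. Its log2 difference was 1.92 for HLA-B, 1.55 for HLA-C, 1.49 for HLA-E and 1.62 for B2M, with edgeR adjusted p values of 0.00188, 0.00719, 0.00719 and 0.00593. TAP1 stood at 0.90 (edgeR adjusted p = 0.0584) and TAP2 at 0.12 (0.555). The removal did not even out DMSO replicates 1 and 2 in every gene. There HLA-E stood at 588 and 329 CPM, NLRC5 at 57.9 and 33.2, and TAP2 at 115.8 and 68.6, from 81.0 and 84.3 before. HLA-B stood at 1097 and 780.5 CPM, HLA-C at 1217 and 950 and B2M at 1499 and 1218.

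**Figure D4:**
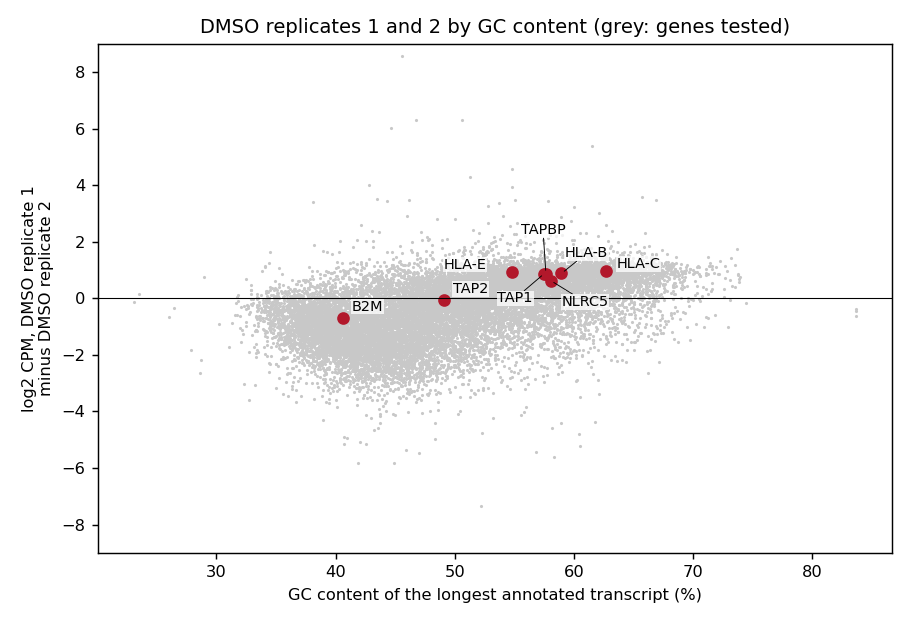
Log2 CPM of DMSO replicate 1 minus DMSO replicate 2 (y axis) against the GC content of each gene's longest annotated transcript in percent (x axis), with 17015 genes in grey and 8 class I presentation genes in red (HLA-F, at 0 counts in DMSO replicate 1, is not drawn). B2M at 40.6% GC lies below 0 at -0.69, TAP2 at 49.1% lies at -0.06, and the other 6 lie between 0.63 and 0.95.

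Of 32 further genes of the class I pathway, 31 passed the filter on low counts. None passed the edgeR test between B2 and DMSO, 0 had an unadjusted p below 0.05, and 6 estimates were positive and 25 negative, with a median of -0.11. In 1 of the 31 the groups did not overlap, a share near the 3.56% of all genes. It was CIITA, the class II transactivator, at 5.65, 5.16 and 5.50 CPM in B2 replicates 1, 2 and 3 and 7.13, 8.12 and 6.55 CPM in DMSO replicates 1, 2 and 3. Its log2 fold change was -0.42 with an SE of 0.286 (edgeR adjusted p = 1.0). Across replicate numbers 3 of the 31 passed, HLA-H, HLA-J and STAT2, all higher in number 3, and the median log2 difference over the 31 was 0.36. Over all genes tested, 2.2% passed with number 3 higher, and the median was -0.05.

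Of the 5 genes of the immunoproteasome and its activator, which shift peptide cutting towards ends that class I grooves accept, 0 passed across numbers (median log2 difference 0.44, 5 positive). PSMB9 had the highest estimate among them at 1.03 (SE 0.300, edgeR adjusted p = 0.113). It had 29.9, 27.1 and 68.5 CPM in B2 replicates 1, 2 and 3, against 48.6, 20.7 and 56.6 CPM in DMSO replicates 1, 2 and 3, and both libraries numbered 3 were above the others. PSMB8 had a log2 difference of 0.36 (SE 0.268) and PSMB10 0.44 (SE 0.281), with edgeR adjusted p values of 0.38 and 0.287.

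The 3 constitutive catalytic subunits PSMB5, PSMB6 and PSMB7, which PSMB8, PSMB9 and PSMB10 replace, had a median log2 difference of 0.00 with 0 called. The CPM ratio of PSMB9 to PSMB6, which it replaces, came to 0.342, 0.36 and 0.759 in B2 replicates 1, 2 and 3, against 0.355, 0.287 and 0.673 in DMSO replicates 1, 2 and 3. It was highest in both libraries numbered 3.

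Among 6 trimming and loading genes 0 passed across numbers (median 0.38, 5 positive). TAPBPL, a tapasin relative that edits peptides outside the transporter complex, averaged 30.1 CPM in number 3, against 13.2 and 12.3 CPM in numbers 1 and 2, with a log2 difference of 1.24 (SE 0.275, edgeR adjusted p = 0.0718). CANX, the chaperone calnexin that binds newly made heavy chains, had the 1 negative estimate at -0.46 (SE 0.306, 95% interval -1.13 to 0.21). Its edgeR adjusted p across numbers was 0.0986. Its highest level in each group was in replicate 2, with 351 CPM under B2 and 588 CPM under DMSO. The chaperone calreticulin, encoded by CALR, had 1272, 1242 and 1698 CPM in B2 replicates 1, 2 and 3, against 1683, 1103 and 2006 CPM in DMSO replicates 1, 2 and 3 (log2 difference 0.49, SE 0.249, edgeR adjusted p = 0.353).

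Of 7 class I related genes and pseudogenes 6 were tested and 2 passed across numbers, beside 2.68% of all genes tested. HLA-G was listed at 0 in all 6 libraries. HLA-J, a class I pseudogene, had 0.854, 0.712 and 33.6 CPM in B2 replicates 1, 2 and 3, against 7.61, 4.23 and 38.9 CPM in DMSO replicates 1, 2 and 3, and its log2 difference of number 3 was 4.25 (SE 0.504, edgeR adjusted p = 0.00137). For HLA-J the test of B2 against DMSO gave a log2 fold change of -0.53 (SE 1.40, edgeR adjusted p = 1.0). With the replicate number as a block the estimate for HLA-J was -1.96 (SE 0.502, 95% interval -3.06 to -0.86), again at an edgeR adjusted p of 1.0, and the level with B2 relative to DMSO was 0.112 in number 1, 0.169 in number 2 and 0.864 in number 3. HLA-H, another class I pseudogene, averaged 49.7 CPM in number 3, against 16.8 and 9.62 CPM in numbers 1 and 2 (log2 difference 1.97, SE 0.302, edgeR adjusted p = 0.00745).

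Both pseudogenes resemble the class I genes, so their reads may be exchanged with them and their values are uncertain. MICA and MICB, ligands of an activating receptor on natural killer cells, had log2 differences of 0.22 (SE 0.271) and 0.40 (SE 0.251), and neither passed. MR1, which presents vitamin metabolites, stood at 0.92 (SE 0.272, edgeR adjusted p = 0.15).

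Of 11 regulators 1 passed across numbers, beside 2.68% of all genes tested, and the median log2 difference of the 11 was 0.04. The gene that passed was STAT2, which carries type I interferon signals to the nucleus. STAT2 had 88.2, 76.1 and 179.6 CPM in B2 replicates 1, 2 and 3, against 72.6, 69.1 and 222 CPM in DMSO replicates 1, 2 and 3, with a log2 difference of 1.40 (SE 0.252, edgeR adjusted p = 0.0271). Its highest levels were in the libraries numbered 3. IRF1, an interferon-induced activator of class I promoters, stood at 0.53 (SE 0.264, edgeR adjusted p = 0.336).

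The promoter-binding partners of NLRC5 had smaller or negative estimates. RFX5 stood at 0.38, RFXANK at 0.30, RFXAP at -0.45, CREB1 at 0.04, NFYA at -0.67, NFYB at -0.05 and NFYC at -0.08, and none passed across numbers. NFYA had its highest level in each group in replicate 2, with 46.6 CPM under B2 and 67.7 CPM under DMSO, and 12.4 to 28.6 CPM in the other 4 libraries.

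Interferon-stimulated genes moved with the class I genes across numbers. Of 25 on the list 23 were tested and 15 passed, all higher in number 3. Of all genes tested, 2.2% passed with number 3 higher. Summed over the list they held 667, 638 and 3650 CPM in B2 replicates 1, 2 and 3, against 798, 648 and 3799 CPM in DMSO replicates 1, 2 and 3. IFI6, for example, had 83.1, 66.6 and 1628 CPM in B2 replicates 1, 2 and 3, against 119, 57.8 and 1726 CPM in DMSO replicates 1, 2 and 3.

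Most macrophage markers also moved with them: of 15 listed 12 were tested and 10 passed, all higher in number 3, beside 2.2% of all genes. Of the 12 estimates 11 were positive. APOE went the other way, with a log2 difference of -1.23 (95% interval -2.21 to -0.26, edgeR adjusted p = 0.15). It had 0.859 and 0.438 CPM in B2 and DMSO replicate 3. Their sum came to 813, 788 and 2697 CPM in B2 replicates 1, 2 and 3, against 463, 822 and 2915 CPM in DMSO replicates 1, 2 and 3. CD14, the lipopolysaccharide co-receptor, had 120.7 and 109.6 CPM in B2 and DMSO replicate 3 and at most 1.29 CPM elsewhere. MRC1 was at 0 in all libraries, MSR1 at 0.0542 CPM or less and C1QB at 0.0902 CPM or less. Of 11 myeloid markers, 4 passed, again higher in number 3, beside the same 2.2% of all genes. Estimates were positive in 8 of these 11. The negative log2 differences were -1.49 for MPO (95% interval -2.71 to -0.27), -0.05 for CD33 and -0.02 for CEBPA, and none of them passed. The part of the interferon-stimulated, macrophage and myeloid genes in the class I result was not tested.

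Lymphocytes carry class I genes at high levels, and their markers were near the limit of counting. Of 9 T cell markers CD3D, CD3E, CD3G, TRBC1 and TRBC2 were at 0 in all 6 libraries, and the summed list held 0.312, 1.12 and 3.73 CPM in B2 replicates 1, 2 and 3, against 0.573, 0.824 and 5.17 CPM in DMSO replicates 1, 2 and 3. CD2 was the 1 T cell marker of 3 tested that passed across numbers, beside 2.68% of all genes tested. MS4A1 and CR2 of 6 B cell markers and KLRD1 of 6 NK cell markers were at 0 in all libraries, and 0 of 4 and 0 of 3 tested passed. The 9 epithelial markers summed to 39.8, 37.9 and 52.4 CPM in B2 replicates 1, 2 and 3, against 9.64, 15.8 and 37.9 CPM in DMSO replicates 1, 2 and 3. Of these 9, 0 passed across numbers and 0 between B2 and DMSO. All 9 estimates for B2 against DMSO were positive, with a median log2 fold change of 1.14, beside -0.08 over all genes. With the block the estimates were 2.20 (SE 0.581) for KRT8 and 1.96 (SE 0.583) for KRT18, keratins of simple epithelia, and both had an edgeR adjusted p of 1.0. The part of these markers in the class I values was not tested.

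The genes whose levels followed the mean of the 9 most closely were sought among 8483 other genes with a mean of at least 10 CPM, by the root-mean-square difference of centred log2 CPM over the 6 libraries. Before the log 0.1 CPM was added. NFE2L1 was nearest at 0.0746, followed by CPQ at 0.0754, HBEGF at 0.0807, GLA at 0.0813 and TMEM63A at 0.0825, where the median candidate lay at 0.617. The mean of the 9 includes HLA-F, whose 0 CPM in DMSO replicate 1 lowers the mean in that library. Which genes come nearest without HLA-F was not tested. NFE2L1, a transcription factor of proteasome genes, had 209, 195 and 393 CPM in B2 replicates 1, 2 and 3 and 227, 172 and 467 CPM in DMSO replicates 1, 2 and 3. B2M on its own was most like CD55 (0.0922), EVI2B (0.144) and CCR1 (0.155). NLRC5 was most like EML2 (0.0277), ARRB1 (0.0279) and ZFYVE1 (0.0295).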

How the data were processed

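Total RNA of 6 U937 libraries (TRIzol, per the labels' protocols) was sequenced. The authors deposited, without normalization, an estimated count (expected count) for each gene and library. Reads were aligned by the authors with HISAT2 2.0.4, as the submitters' processing notes state. How reads were counted, on which build and annotation and with what strand setting, is not given in the sources used. All deposited values were whole, so rounding changed nothing, but the value 4 occurred 6465 times against 3144 times for 3 and 2022 times for 5, so small counts are less exact than they look. Totals ran from 61150740 to 78431054.

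Of 60612 identifiers 60588 were named from a gene name table and GENCODE 29, whose positions are used. Genes were kept by filterByExpr (minimum count 10, total 15), scaled by TMM and tested with edgeR 4.0.16 under R 4.3.3 (glmQLFit, glmQLFTest), with Benjamini-Hochberg adjustment over 17224 genes and a threshold of 0.05. B2 against DMSO had treatment as the only term. Replicate numbers were tested with an F test of both number coefficients beside treatment. Each standard error was derived from the log2 difference and the quasi-likelihood F statistic of that difference, and intervals were built from it. Such standard errors are unreliable for differences very near 0. Alternatives used DESeq2 1.42.0, limma-voom 3.58.1, other factors and filters, counts divided by 4, mitochondrially encoded genes removed, the block, and libraries left out. Chosen after the data were seen were removal of a loess trend with GC content and length (17015 genes), and the principal transcript length.

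Same-numbered libraries deviated together from their group means, with correlations across genes of 0.21 for number 1, 0.402 for number 2 and 0.496 for number 3. The block fit treats same-numbered libraries as pairs, which the labels do not state. The main test of B2 against DMSO does not use this pairing.

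The 9 genes, the pathway and marker lists and the test across numbers were chosen with earlier results of these data known. All 9 genes and any gene of the pathway lists may be named. Genes of like pattern are the 5 (or 3 for 1 gene) with the smallest difference in centred log2 CPM. A gene of the pathway lists is not reported here and was left out of their counts. Promoter windows come from RefSeq (GRCh38.p14). IFI6, CD14, MPO, AZU1 and the other marker genes named were chosen from their lists after their values were seen.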

Additional observations from a re-analysis of the deposited data

How the results depend on the processing

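Between B2 and DMSO the count of genes called was 0 in 18 of 21 alternatives. It was 1 with DESeq2, 0 to 1 with each library left out (1 without B2 replicate 2) and 48 with both libraries of number 3 left out and the replicate block (31 higher, 17 lower), a fit on 2 pairs. The replicate block alone gave 0 (228 at an unadjusted p below 0.05) and changed no call. No class I gene passed in any of them. HLA-F changed sign with DESeq2 (0.0052), limma-voom (1.03), upper-quartile factors (0.028), the block (0.35), the block with the trend removed (0.33), number 3 left out (0.53) and number 3 left out with the block (1.62). With library totals TAP1 stood at 0.0017, TAP2 at 0.0095 and NLRC5 at 0.0091, and NLRC5 stood at 0.018 with number 3 left out and the block. With each library left out the log2 fold change ran from -1.18 to 0.82 for HLA-B, -1.005 to 0.58 for HLA-C, -0.91 to 0.51 for HLA-E, -0.61 to 0.38 for HLA-F, -0.85 to 0.71 for B2M, -0.51 to 0.31 for TAP1, -0.11 to -0.01 for TAP2, -0.48 to 0.095 for TAPBP and -0.31 to 0.063 for NLRC5.

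Across replicate numbers 461 genes were called, 379 higher and 82 lower in number 3 than in the mean of numbers 1 and 2. The count was 1686 with DESeq2 (871 higher, 815 lower), 1278 with limma-voom (686 and 592), 956 with RLE factors (583 and 373), 1168 with upper-quartile factors (634 and 534), 266 with library totals (254 and 12), 2379 after dividing counts by 4 (1048 and 1331), 1346 under the filter of 1 CPM in 3 libraries (591 and 755), 752 with the trend removed (537 and 215) and 248 at an adjusted p of 0.01 (241 and 7). With each library left out it ran from 388 to 4124 (4124 without B2 replicate 1, 1726 without B2 replicate 2). HLA-F ran from -0.95 to 4.20 there, and the other 8 class I genes kept a positive difference in all 18 alternatives. The cause of these shifts was not tested. A count of 3 equals 0.0386 to 0.0537 CPM, so depth limits HLA-F alone among the 9.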
